A study of Arabidopsis thaliana with 18 samples.

Results

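LBD16, LBD29, HAT2, IAA20, IAA29 and IAA30 are 6 nuclear regulators known as genes of the auxin response in Arabidopsis. They were taken by gene symbol, each from the probe set that the array annotation pairs with that gene alone, and they are 6 of the 13286 genes that have such a probe set here. Their levels were read from 18 ATH1 arrays (Affymetrix), 3 for each of 6 genotypes, hybridised with RNA of root hair cells sorted from 5-day-old seedlings. The study looked for root hair genes that depend on GTL1 and DF1, a pair of trihelix transcription factors that restrain the growth of the hair. In GTL1ox and DF1ox, the overexpression lines, the promoter of the root hair expansin gene EXPA7 drove GTL1-GFP or DF1-GFP, and this fusion protein was also the fluorescence that was sorted. In the double mutant gtl1df1 (gtl1-1 df1-1) and the wild type (WT), the sorted fluorescence was a nuclear GFP under the same promoter (pEXPA7:NLS-GFP). The study's methods do not name the GFP transgene of the single mutants gtl1 (gtl1-1) and df1 (df1-1). The overexpression lines therefore carried a different GFP transgene from gtl1df1 and WT. The sample protocol describes protoplasts and the series description describes nuclei as the material sorted.

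Auxin acts by promoting the breakdown of Aux/IAA proteins, which otherwise hold auxin response factors in check. Released response factors switch on early auxin genes, among them Aux/IAA genes themselves, GH3 genes that conjugate the hormone, LBD genes and the HD-ZIP class II gene HAT2. LBD16 and LBD29 are best known for their part in lateral root initiation downstream of ARF7 and ARF19, and auxin also promotes the elongation of root hairs. IAA20 and IAA30 belong to a small group of Aux/IAA proteins that lack the degron through which auxin marks most of the family for breakdown.

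The 18 arrays each correlated most closely with another array of their own genotype, with correlations of 0.987 to 0.998 within genotypes. All levels below are log2 expression values, so a difference of 1 is a 2-fold difference. The lowest value in the table was 2.22, and 27.9% of all values lay within 0.01 of it. Where every array of the dimmer genotype lay within 2-fold of that value, that is at or below 3.22, a change is a lower limit. DF1 averaged 14.21 ± 0.11 in DF1ox, 3.45 ± 0.25 in df1 and 4.15 ± 0.82 in gtl1df1, against 7.35 ± 0.19 in WT (SD, n = 3 each), and GTL1 was not analysed here. DF1 also averaged 5.25 ± 0.37 in GTL1ox, below every WT array, and 8.57 ± 0.23 in gtl1, above every WT array. The part of the lower DF1 level in the GTL1ox changes of the 6 genes was not tested. The root hair marker EXPA7 lay between 12.78 and 13.34 on every array. The bacterial spike-in control BioB read 2.49 to 2.99 on all arrays of GTL1ox, DF1ox and WT, but 7.06 to 8.13 on all arrays of the 3 mutants. A difference between these 2 sets of arrays therefore cannot be told apart from genotype in any comparison of an overexpression line or WT with a mutant. The comparisons among GTL1ox, DF1ox and WT, and those among the mutants, lie within 1 set.

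In WT root hair cells, IAA30 read 9.62, 10.20 and 9.67 and HAT2 read 4.88, 5.94 and 6.09 on the 3 arrays, both above the range near the lowest value. LBD16, LBD29, IAA20 and IAA29 lay within 2-fold of the lowest value of the table on every WT array. Only a rise could therefore be measured for these 4 genes against WT. Levels are compared between genotypes for 1 gene at a time, since different probe sets do not share a scale of transcript number.

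**Figure D1:**
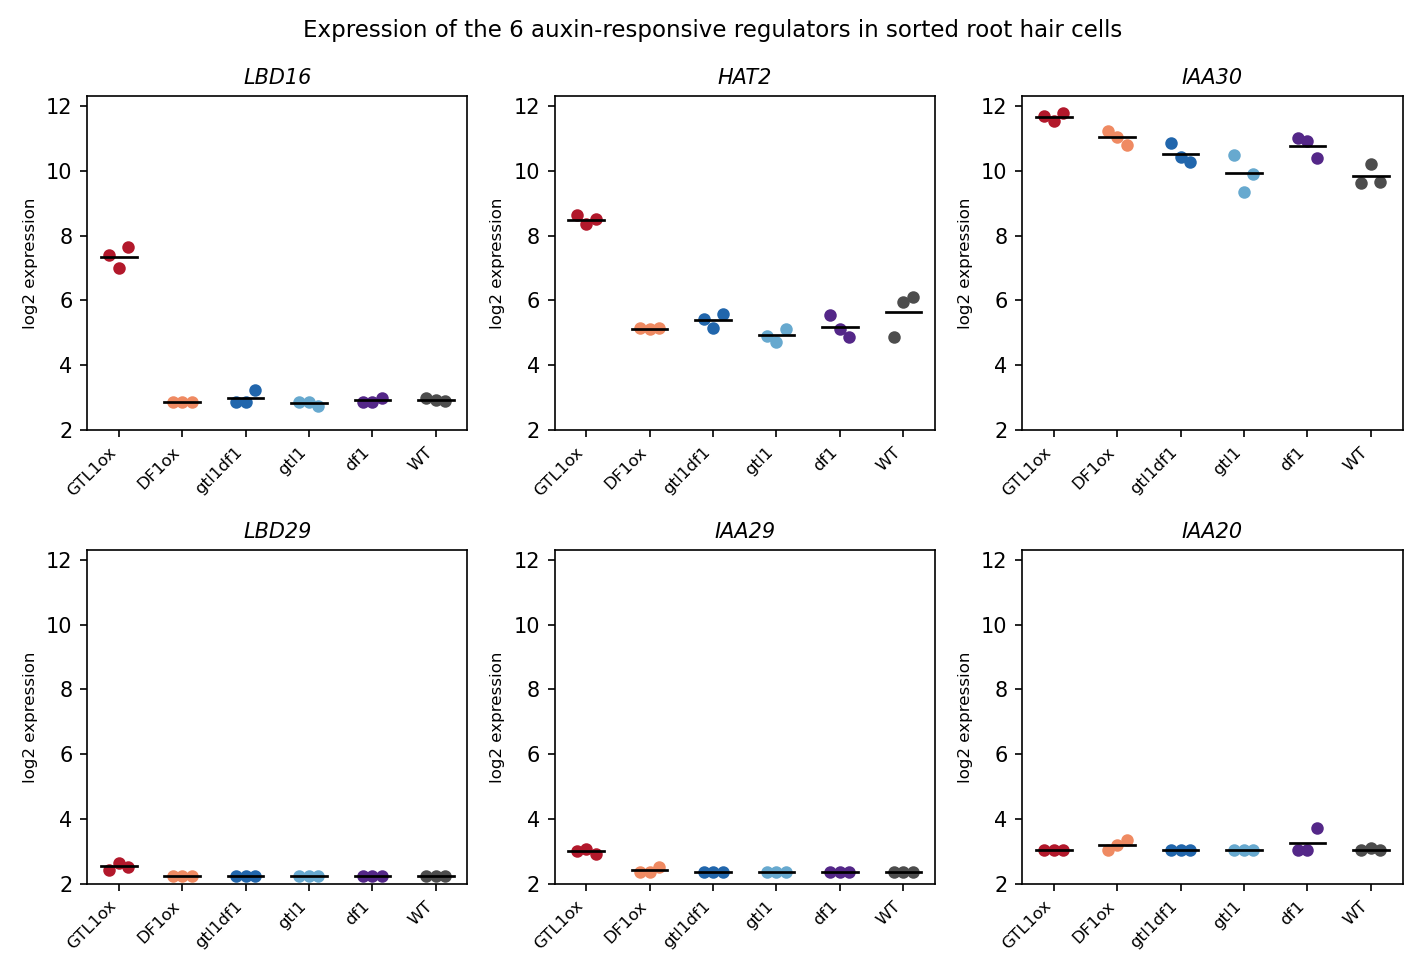
Log2 expression of the 6 genes (vertical axis, same scale in every panel) in the 6 genotypes, with a point for each of 3 arrays and a bar for the mean. LBD16 and HAT2 stand high only on the GTL1ox arrays, at 6.995 to 7.65 and 8.37 to 8.63, IAA30 lies between 9.35 and 11.80 in all genotypes, and LBD29, IAA29 and IAA20 lie near the bottom of the scale throughout.

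Of the 6 genes, 5 were called higher in GTL1ox than in WT at an adjusted p under 0.05 in the limma fit over all probe sets, and none lower. In the same comparison 24.5% of the 22746 probe sets were called either way and 14.9% were called higher. The 5 genes were LBD16, LBD29, HAT2, IAA29 and IAA30, and the one not called was IAA20. The count was 3 (LBD16, HAT2 and IAA30) with a 2-fold threshold, with only probe sets above the median level, or with values within 2-fold of the lowest set equal, since LBD29 and IAA29 lay in that range on every array. The arrays are bulk samples of sorted cells, so a larger number of expressing cells and more RNA in each cell cannot be told apart.

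LBD16 (AT2G42430), a LATERAL ORGAN BOUNDARIES domain factor of lateral root initiation, had the largest difference measured among the 6. It read 7.41, 6.995 and 7.65 in GTL1ox root hair cells, against 2.97, 2.91 and 2.90 in WT. Every GTL1ox array lay above every WT array, and all 3 WT values were within 2-fold of the lowest value of the table. The difference was at least 4.43 ± 0.13 log2 units (SE, 95% interval 4.14 to 4.71, adjusted p = 1.81e-10, limma), or at least 21.5-fold. The SE and interval describe the measured difference and set no upper limit on the true one. They rest on a spread pooled over genotypes, with an SD of 0.33 in GTL1ox. The SD was 0.20 or less in every other genotype, near the lowest value, which narrows the SE and interval. The highest adjusted p under the 13 alternatives was 0.00207 (limma). LBD16 was not called in DF1ox, where the arrays read 2.87, 2.87 and 2.87, and its difference from WT was -0.05 with a 95% interval of -0.34 to 0.23. GTL1ox exceeded DF1ox by at least 4.48 log2 units (adjusted p = 2.6e-10). GTL1ox also exceeded gtl1df1, with arrays at 2.87, 2.87 and 3.22, by at least 4.37 log2 units (adjusted p = 1.32e-10). In the mutants LBD16 averaged 2.99 ± 0.20 in gtl1df1, 2.82 ± 0.08 in gtl1 and 2.91 ± 0.07 in df1, against 2.93 ± 0.04 in WT (SD, n = 3 each). These 15 arrays without GTL1ox all lay within 2-fold of the lowest value, so a fall of LBD16 in a mutant could not be measured.

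LBD29 (AT3G58190), the second LBD factor, was dim on every array, GTL1ox included. It read 2.42, 2.65 and 2.52 in GTL1ox, whereas 14 of the 18 arrays in all repeated the lowest value, 2.22, and the one remaining array, df1 replicate 2, read 2.24. The GTL1ox arrays did not overlap with any other genotype. The difference was 0.31 ± 0.04 log2 units against WT (SE, adjusted p = 4.07e-05, limma), 0.31 against DF1ox (adjusted p = 6.3e-05) and 0.31 against gtl1df1 (adjusted p = 2.59e-05). All 18 values lay within 2-fold of the lowest, and when such values were set equal the difference was 0. LBD29 was thus called beside LBD16 in the same genotype, at a level where its true size could not be measured.

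HAT2 (AT5G47370), an auxin-inducible homeodomain-leucine zipper factor of class II, was clearly above the bottom of the scale on all 18 arrays. It read 8.63, 8.37 and 8.50 in GTL1ox, against 4.88, 5.94 and 6.09 in WT. Every GTL1ox array was at least 2 log2 units above the brightest WT array. The difference was 2.86 ± 0.27 log2 units (SE, 95% interval 2.28 to 3.44, adjusted p = 4.06e-06, limma), or 7.26-fold. In DF1ox HAT2 read 5.13, 5.12 and 5.13, so that GTL1ox exceeded DF1ox by 3.37 log2 units (adjusted p = 1.55e-06). HAT2 in GTL1ox was 8.66-fold above gtl1df1 (adjusted p = 1.15e-06).

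Below GTL1ox, the order of HAT2 means was WT, gtl1df1, df1, DF1ox and gtl1, and each neighbouring pair in this order overlapped. HAT2 read 5.44, 5.13 and 5.58 in gtl1df1, 4.91, 4.72 and 5.12 in gtl1 and 5.53, 5.12 and 4.85 in df1. WT spread more widely than any of them, with an SD of 0.66, because replicate 1 read about 1 log2 unit below replicates 2 and 3. The differences from WT were -0.51 in DF1ox (adjusted p = 0.311), -0.25 in gtl1df1 (adjusted p = 0.706), -0.72 in gtl1 (adjusted p = 0.108) and -0.47 in df1 (adjusted p = 0.289, limma). None of these was called with all arrays and all probe sets in the fit, and leaving out 1 WT array changed each outcome. Without WT replicate 1, HAT2 was called lower than WT in DF1ox (-0.89, adjusted p = 0.0107), gtl1df1 (-0.63, adjusted p = 0.0392), gtl1 (-1.10, adjusted p = 0.00252) and df1 (-0.85, adjusted p = 0.0069). With only the probe sets above the median level tested, HAT2 was also called lower in gtl1, at an adjusted p of 0.0445 with all 3 WT arrays. The call in GTL1ox kept its side of the threshold when each array was left out, with changes of 2.48 to 3.09.

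Among the Aux/IAA genes, IAA30 (AT3G62100) was measured above the dim range on all 18 arrays and was the only one of the 6 genes called in more than 1 genotype against WT. IAA30 read 11.68, 11.53 and 11.80 in GTL1ox, against 9.62, 10.20 and 9.67 in WT. The arrays did not overlap, and the difference was 1.84 ± 0.27 log2 units (SE, 95% interval 1.24 to 2.44, adjusted p = 0.000231, limma), or 3.58-fold. In DF1ox IAA30 read 11.25, 11.05 and 10.80, again above every WT array. Its difference from WT was 1.20 log2 units (95% interval 0.61 to 1.80, adjusted p = 0.0179), or 2.30-fold. IAA30 was the 1 gene of 6 called in DF1ox against WT, where 8.04% of all probe sets were called. The DF1ox call was lost without WT replicate 3 (adjusted p = 0.0657), without DF1ox replicate 1 (0.0622) or DF1ox replicate 2 (0.0528), and in a fit of the DF1ox and WT arrays alone (0.122, limma throughout), whereas the GTL1ox call passed under each of the 13 alternatives.

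Whether IAA30 was higher in GTL1ox than in DF1ox was tested directly. The difference was 0.64 log2 units (95% interval 0.04 to 1.23) and the arrays did not overlap, but the adjusted p of 0.14 in the limma fit did not pass. For GTL1ox against DF1ox, 4 of the 6 genes were called, all higher in GTL1ox (LBD16, LBD29, HAT2 and IAA29), and 5 had an unadjusted p under 0.05. Over all probe sets 20.5% were called in that comparison and 13.1% were called higher in GTL1ox.

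IAA30 was bright in the mutants as well. It read 11.01, 10.92 and 10.39 in df1, 10.86, 10.43 and 10.28 in gtl1df1 and 10.51, 9.35 and 9.91 in gtl1, so that df1 and gtl1df1 lay above every WT array and gtl1 overlapped with WT. IAA30 was called higher in df1 by 0.94 ± 0.27 log2 units (SE, adjusted p = 0.032, limma), the 1 gene of 6 called there against 17.6% of all probe sets. This call was lost without WT replicate 1 (adjusted p = 0.091), WT replicate 3 (0.108), df1 replicate 1 (0.105) or df1 replicate 2 (0.108), and in a fit of the df1 and WT arrays alone (0.153). The difference was 0.69 in gtl1df1 (95% interval 0.09 to 1.29, adjusted p = 0.128) and 0.09 in gtl1 (95% interval -0.51 to 0.69, adjusted p = 1). The df1 arrays also had the largest gap between the 3' and 5' probe sets of the GAPDH control transcript, with 2.02 to 2.54 log2 units in df1, 1.80 to 1.84 in gtl1df1 and 1.80 to 1.94 in gtl1, against 1.36 to 1.71 in WT. The gap was 1.18 to 1.37 in GTL1ox, the smallest mean of the 6 genotypes, and 1.49 to 1.78 in DF1ox. The part of this gap in the GTL1ox changes of the 6 genes was not tested, nor was that of the gap or of the 2 sets of arrays in the IAA30 value of df1.

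In gtl1 against WT, 0 of the 6 genes were called and 1, HAT2, had an unadjusted p under 0.05, against 11.8% of all probe sets called. In gtl1df1 against WT, 0 of 6 were called and 1, IAA30, had an unadjusted p under 0.05, against 14.7% of all probe sets. Within the mutants, 0 of 6 were called in gtl1df1 against gtl1 (4.71% of all probe sets), with IAA30 at an unadjusted p under 0.05, and 0 of 6 in gtl1df1 against df1 (17.4%), with no gene at an unadjusted p under 0.05. IAA30 differed by 0.60 log2 units between gtl1df1 and gtl1 (95% interval 0.00 to 1.20, adjusted p = 0.291) and by -0.25 between gtl1df1 and df1 (95% interval -0.85 to 0.35, adjusted p = 0.719). The interaction, which asks whether the double mutant departs from the sum of the single mutants, was called for 0 of 6 genes and for 15.6% of all probe sets. It includes WT, so a difference between the WT and mutant sets of arrays does not cancel in the interaction and cannot be told apart from it. HAT2 had the 1 unadjusted p under 0.05 there, with an interaction of 0.93 log2 units (adjusted p = 0.13), and this was called without WT replicate 1 (1.31, adjusted p = 0.00297).

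The study set each overexpression line against gtl1df1. In GTL1ox against gtl1df1, which shares its GTL1ox arrays with the comparison against WT, LBD16, LBD29, HAT2, IAA29 and IAA30 were called higher and none lower, while 29.3% of all probe sets were called either way and 17.7% higher. IAA30 exceeded gtl1df1 by 1.15 log2 units in GTL1ox (95% interval 0.55 to 1.74, adjusted p = 0.00564, limma). In DF1ox the difference from gtl1df1 was 0.51 log2 units (95% interval -0.09 to 1.11, adjusted p = 0.268). In DF1ox against gtl1df1, 0 of the 6 genes were called and 0 had an unadjusted p under 0.05, against 20.8% of all probe sets called.

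**Figure D2:**
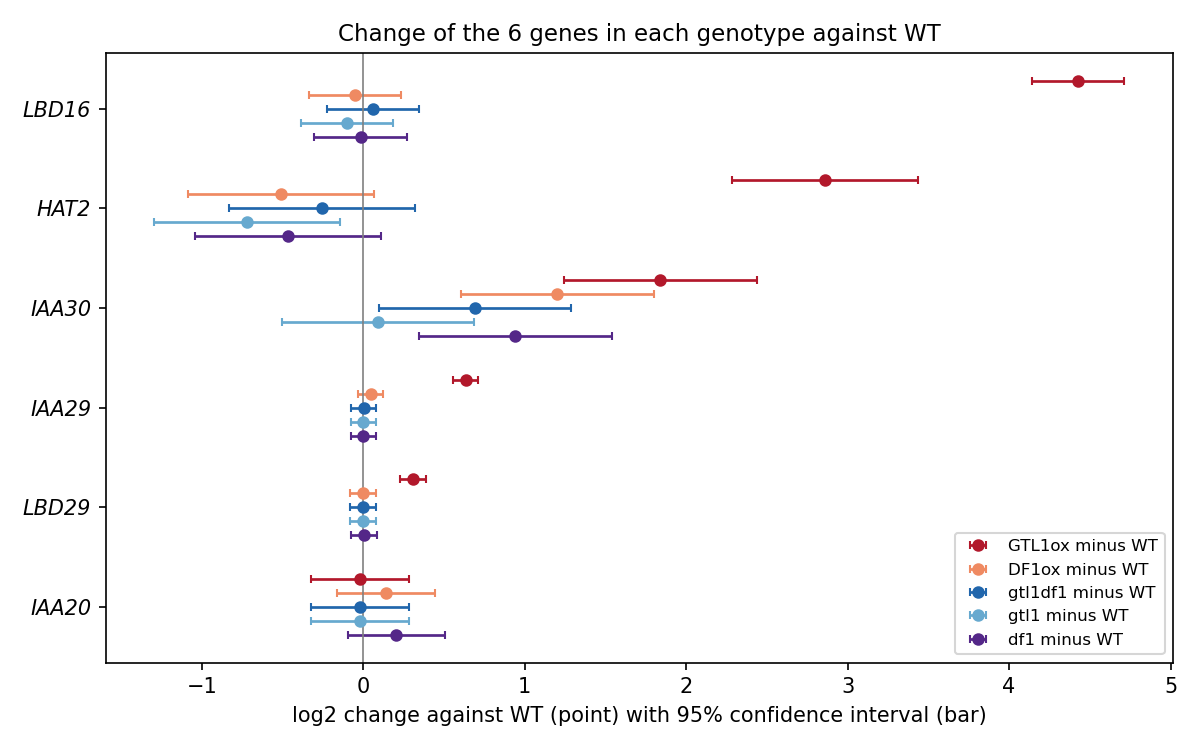
Log2 change of each gene (rows) in the 5 other genotypes against WT, with points for the difference of means over 3 arrays each and bars for the 95% confidence interval of the limma fit. GTL1ox stands apart at 4.43 for LBD16 and 2.86 for HAT2, whereas for IAA30 the GTL1ox (1.84), DF1ox (1.20), df1 (0.94) and gtl1df1 (0.69) intervals all lie above 0.

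IAA29 (AT4G32280), an Aux/IAA gene also known to respond to shade and to phytochrome-interacting factors, read 3.01, 3.07 and 2.91 in GTL1ox. The other 15 arrays lay between 2.36 and 2.50, the highest of them DF1ox replicate 3, so GTL1ox did not overlap with any genotype. The difference was 0.63 ± 0.04 log2 units against WT (SE, adjusted p = 5.63e-08, limma), 0.59 against DF1ox (adjusted p = 1.88e-07) and 0.63 against gtl1df1 (adjusted p = 3.75e-08). All 18 values lay within 2-fold of the lowest value of the table, and when such values were set equal the difference was 0. The spread of these dim values was small, with an SD of 0.08 in GTL1ox and of 0.08 or less in every other genotype.

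IAA20 (AT2G46990), which encodes an Aux/IAA protein without the degron like IAA30, repeated 1 value, 3.03, on 14 of the 18 arrays. The 4 arrays above that value were df1 replicate 3 at 3.71, DF1ox replicates 2 and 3 at 3.18 and 3.36, and WT replicate 2 at 3.09. IAA20 was not called in any of the 11 comparisons. Its difference from WT was -0.02 in GTL1ox with a 95% interval of -0.32 to 0.28, and 0.21 in df1 with an interval of -0.10 to 0.51. Every GTL1ox array and WT replicates 1 and 3 held the repeated value. The GTL1ox interval therefore reflects the spread pooled over genotypes, with the largest SD (0.39) in df1, and sets no limit on a change of IAA20.

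IAA31, a relative of IAA20 and IAA30 in the Aux/IAA family, was also measured above the dim range on all 18 arrays. IAA31 read 9.57, 9.68 and 9.58 in GTL1ox, against 10.02, 9.31 and 9.34 in WT, a difference of 0.05 log2 units (adjusted p = 1, limma). In DF1ox it read 9.96, 10.30 and 9.98, which was not called against WT (0.52, adjusted p = 0.145) except without WT replicate 1 (0.75, adjusted p = 0.022). IAA31 was called lower in df1 (-0.91, adjusted p = 0.00768) and gtl1df1 (-0.94, adjusted p = 0.00658), each lost in a fit of only the 2 genotypes compared (adjusted p = 0.183 and 0.13). In df1, then, IAA30 was called higher than WT and IAA31 lower, and the difference between these 2 changes was not tested.

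The other auxin genes were read from lists of Aux/IAA, GH3, auxin synthesis and related genes, of which 13 beyond the 6 had a probe set of their own. They were 4 Aux/IAA genes (IAA18, IAA31, IAA33 and IAA34), 5 GH3 genes and 4 YUC genes of auxin synthesis. In GTL1ox against WT, GH3.3 and GH3.1 were the 2 of 13 called, both higher, a share near the 14.9% of all probe sets called higher, and the median change was 0, as it was over all probe sets tested. Both encode acyl acid amido synthetases that conjugate auxin. IAA18, IAA33, IAA34, GH3.9 and the 4 YUC genes lay within 2-fold of the lowest value on every array. The share and the median of the 13 therefore say little about the genes with a measured level. GH3.3 averaged 12.71 ± 0.12 in GTL1ox, 8.50 ± 0.16 in DF1ox and 9.03 ± 0.46 in df1, against 6.96 ± 0.23 in WT (SD, n = 3 each). GH3.3 was thus called higher in GTL1ox (5.75 log2 units, adjusted p = 1.09e-08), DF1ox (1.54, adjusted p = 0.00416) and df1 (2.07, adjusted p = 0.000407, limma). The DF1ox and df1 calls of GH3.3 were lost in fits of only the 2 genotypes compared (adjusted p = 0.0578 and 0.0608). GH3.1 averaged 7.89 ± 0.30 in GTL1ox and 5.20 ± 0.43 in DF1ox, against 3.05 ± 0.05 in WT, and was called higher in both, by at least 4.84 and at least 2.15 log2 units (adjusted p = 7.94e-08 and 0.00073). The DF1ox call of GH3.1 was likewise lost in such a fit (adjusted p = 0.0673). In df1 against WT, 2 of the 13 were called higher (GH3.3 and GH3.1) and 1 lower (IAA31), against 17.6% of all probe sets called either way, and in gtl1df1 against WT 1 was called higher (GH3.5) and 1 lower (IAA31), against 14.7%. GH3.1 in df1 and GH3.5 in gtl1df1 are named after their values were seen, and of the 6 fits that left out 1 array each, only 1 and 2 kept these calls. In gtl1 against WT 0 of the 13 were called and 1 had an unadjusted p under 0.05. The 4 YUC genes read 2.22 to 2.48 on every array.

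**Figure D3:**
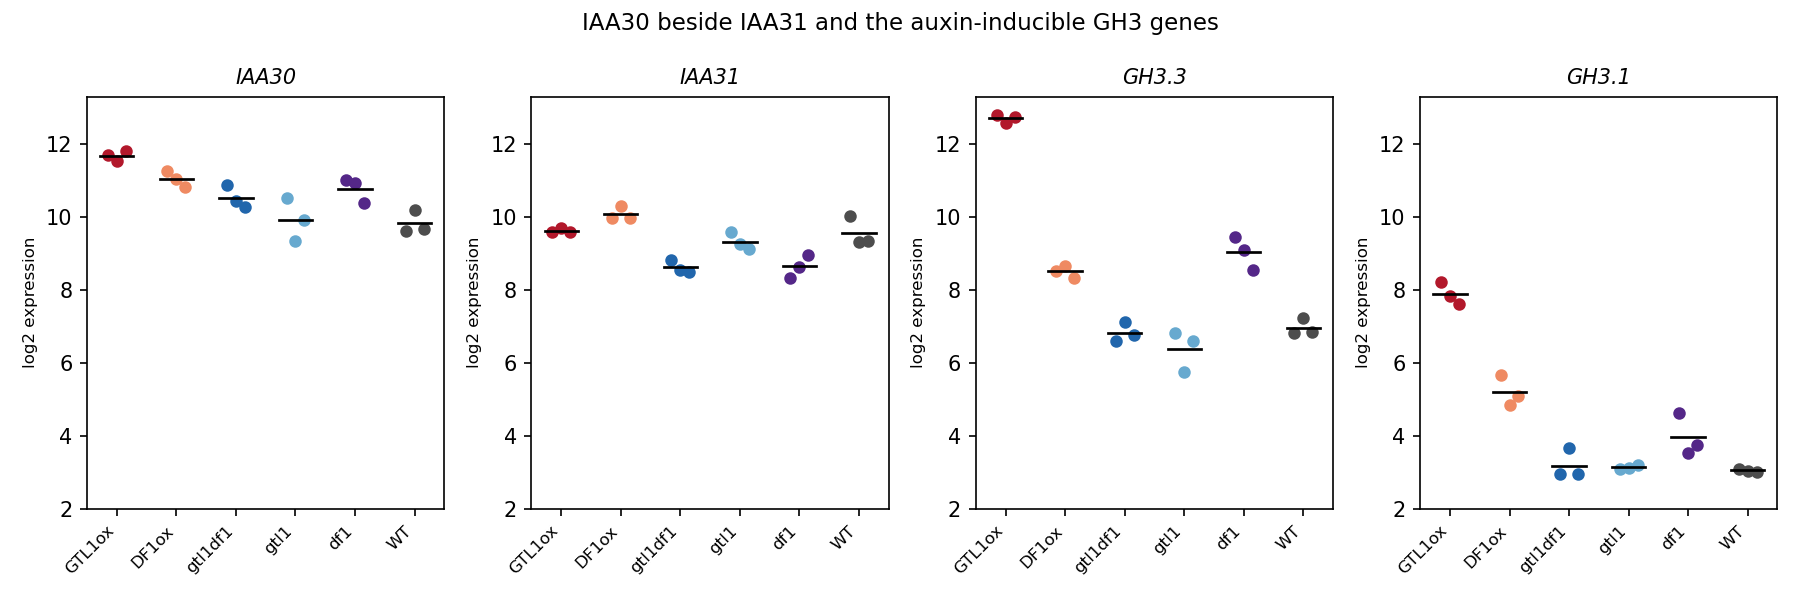
Log2 expression (vertical axis, same scale) of IAA30, IAA31, GH3.3 and GH3.1 in the 6 genotypes, with a point for each of 3 arrays and a bar for the mean. IAA30, GH3.3 and GH3.1 are highest in GTL1ox, at 11.67, 12.71 and 7.89, whereas IAA31 averages 9.61 in GTL1ox and 9.56 in WT and is lowest in gtl1df1 (8.61) and df1 (8.64).

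Over the same comparisons, 2 of the 3 measured root hair markers were called lower in GTL1ox than in WT, against 9.65% of all probe sets. EXPA18, an expansin of the root hair wall, read 12.77 to 12.92 in GTL1ox, against 14.21 to 14.34 in WT (-1.45, adjusted p = 1.11e-09, limma). XTH26, a xyloglucan endotransglucosylase of root hairs, read 9.31 to 9.69 in GTL1ox, against 11.43 to 12.07 in WT (-2.25, adjusted p = 1.47e-06). EXPA7, whose promoter drove the sorted GFP, read 13.20 to 13.34 in GTL1ox, against 13.10 to 13.14 in WT (0.15, adjusted p = 0.129, and 0.0493 after quantile normalization). Of the other cell types of the root, the lateral root founder marker PUCHI lay at 2.22 on all 18 arrays and the ground tissue marker JKD at 2.22 to 2.31. They were the 1 of 7 and 1 of 5 listed markers of these cells with a probe set of their own, and none of 6 listed stele markers had one. Against WT, EXPA18 was also called lower in DF1ox (-0.27), XTH26 (-1.05) and EXPA18 (-0.22) in df1, and XTH26 (-0.83), EXPA18 (-0.33) and EXPA7 (-0.23) in gtl1df1, where IAA30 was not called. Each of these 6 calls was lost in a fit of only the 2 genotypes compared (adjusted p = 0.0543 to 0.144), and those of EXPA18 in DF1ox and df1 and of EXPA7 in gtl1df1 also after median centring (0.0675, 0.193 and 0.208). The part of a change in cell composition in the rise of LBD16, HAT2 and IAA30 was not tested.

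The 6 genes were also compared in how they varied from array to array. Over all 18 arrays LBD16 correlated with HAT2 at r = 0.961, with IAA29 at 0.974, with LBD29 at 0.931 and with IAA30 at 0.671. Over the 15 arrays without GTL1ox the same pairs gave 0.17, -0.05, -0.08 and -0.11. On those 15 arrays LBD16, LBD29 and IAA29 all lay within 2-fold of the lowest value, with LBD29 at 1 repeated value on 14, so that little variation was left to correlate. HAT2 and IAA30, both above the dim range on all 18 arrays, correlated at r = 0.651 over the 18 arrays. Without GTL1ox this pair gave 0.015 over the 15 arrays. Arrays of 1 genotype share their origin, and all arrays share their normalization. IAA20 correlated with the other 5 between -0.25 and -0.03.

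Of 2792 other single-gene probe sets whose genotype means spanned at least 1 log2 unit, those most like LBD16 over the 18 arrays were AUR3, which encodes an Aurora kinase (r = 0.997), AT5G18600 (0.996) and AT5G40590 (0.994). AUR3 averaged 4.28 in GTL1ox and 2.61 in DF1ox, against 2.64 in WT. AT5G40590 averaged 8.13 in GTL1ox and 2.91 in DF1ox, against 2.85 in WT. AUR1, another Aurora kinase gene, was most like HAT2 (r = 0.974), with means of 5.93 in GTL1ox and 2.43 in DF1ox, against 2.82 in WT, followed by AT5G62550 (0.968) and AT3G43110 (0.967). Those most like the dim LBD29 were GH9B17 (0.987), AT2G03140 (0.973) and AT2G35540 (0.966). Those most like IAA29 were AT3G06330 (0.995), AT2G24440 (0.993) and PIPK11 (0.993). LBD16, LBD29 and IAA29 lay within 2-fold of the lowest value on every array without GTL1ox. Their r values therefore mainly reflect GTL1ox against all other arrays.

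IAA30 had its closest likenesses elsewhere, in genes that were high in GTL1ox and intermediate in DF1ox. AT3G61800 (r = 0.909) averaged 7.71 in GTL1ox and 6.47 in DF1ox, against 5.89 in WT. AT3G02480 (0.906) averaged 10.60 in GTL1ox and 9.16 in DF1ox, against 6.40 in WT, and AT5G61820 (0.901) averaged 11.12 in GTL1ox and 8.58 in DF1ox, against 7.12 in WT. IAA20, with its repeated value, was most like AT5G03550, at no more than r = 0.646. All these correlations over 18 arrays are descriptions, and arrays of 1 genotype are not independent points.

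The genes beside the 6 on the chromosome were looked up after these values were seen, and 5 of the 12 neighbours had a probe set of their own. AT3G62110, the gene after IAA30, averaged 6.68 in GTL1ox, against 5.67 in WT, and was called higher (1.01, adjusted p = 0.000229, limma). AT5G47360, before HAT2, averaged 3.87 in GTL1ox and 3.85 in WT, a difference of 0.02 log2 units. AT5G47380, after HAT2, lay at the lowest value, 2.22, in both genotypes, so its difference of 0.00 is not a measured one. AT3G58180, the gene before LBD29, was called lower in GTL1ox (-0.42, adjusted p = 0.00289), and AT3G58200, after it, was not called (0.12, adjusted p = 0.587). AT3G58200 averaged 2.38 in GTL1ox and 2.26 in WT, near the lowest value, where a fall could not be measured.

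Each array compared was left out in turn. The GTL1ox changes against WT of LBD16, HAT2 and IAA30 passed the threshold without any 1 of the 6 arrays compared, with log2 changes of 4.28 to 4.61, 2.48 to 3.09 and 1.74 to 2.02. Those of LBD29 and IAA29 passed in all 6 such fits as well, but not with values within 2-fold of the lowest set equal. HAT2 in the 4 genotypes below WT and IAA30 in DF1ox and df1 lay on either side of the threshold, depending on which array was left out.

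**Figure D4:**
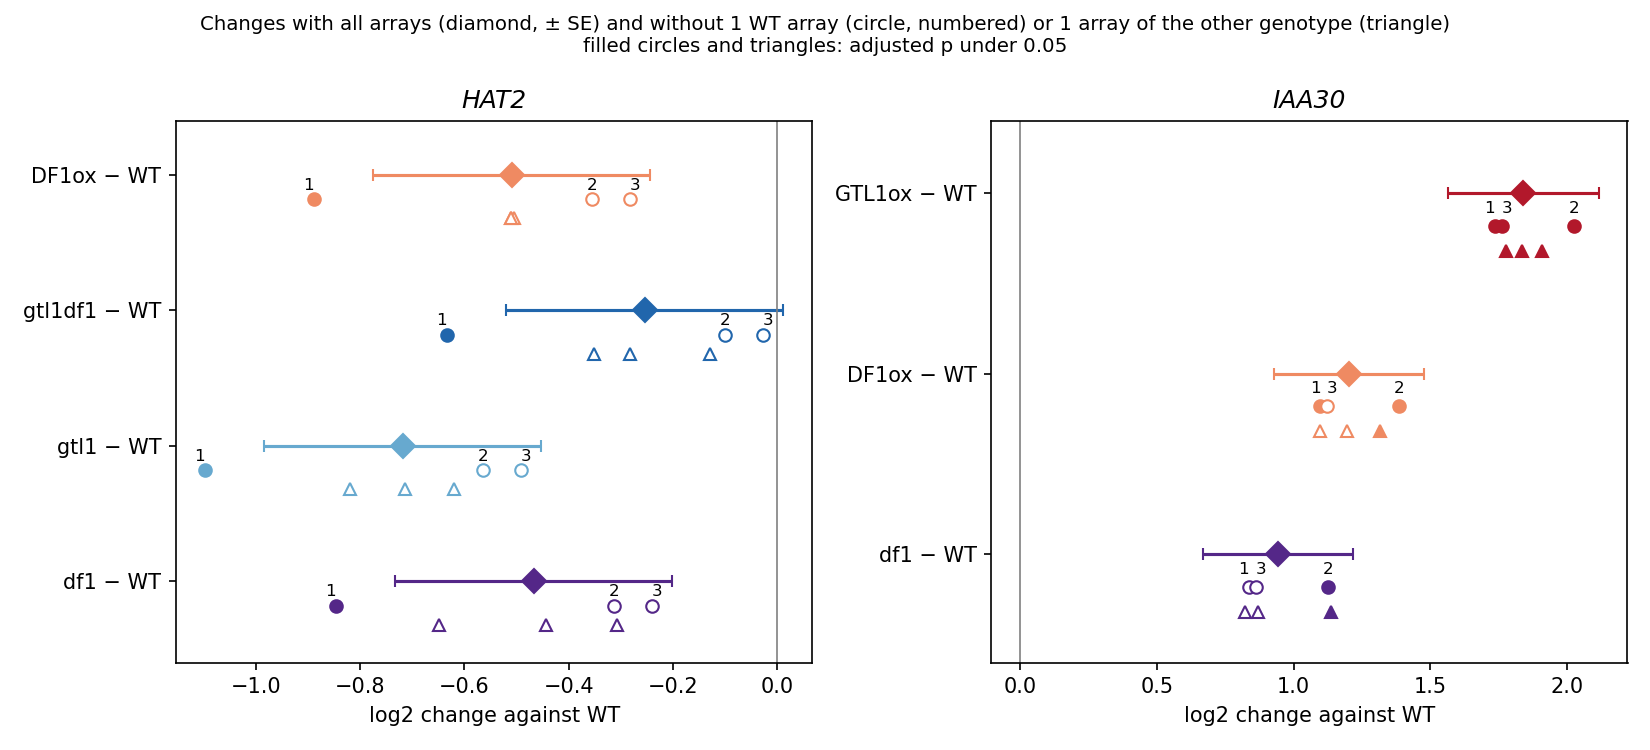
Log2 change against WT of HAT2 (left, all genotypes except GTL1ox) and IAA30 (right, the 3 genotypes in which it was called), with diamonds and bars for all 18 arrays ± SE, circles without 1 numbered WT array and triangles without 1 array of the other genotype. Diamonds are filled at any adjusted p. Filled circles and triangles have an adjusted p under 0.05. For HAT2 these are only the circles without WT replicate 1, where the change lies between -1.10 and -0.63.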

How the data were processed

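The authors normalized the ATH1 arrays with gcRMA (GCRMA in the processing notes), and the deposited values are log2 expression, used here without a further step. The labelling cycle of each array, the version and the settings are not given in the sources consulted. Control probe sets (64) were dropped, dim probe sets were kept, and 0 columns of no sample were present. Names came from the platform annotation and the RefSeq gene table of assembly TAIR10.1 (13513 with 1 gene, 503 with several and 8730 with none). No sequence of the 6 genes was used.

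The 18 arrays entered 1 linear model with a mean for each genotype in limma 3.58.1 under R 4.3.3, moderated by eBayes without trend, with two-sided tests, and p-values were adjusted by Benjamini-Hochberg over 22746 probe sets. A call is an adjusted p under 0.05. The 6 genes, the gene lists and the comparisons were chosen with earlier results of these data known. The rule for names took the 6 genes, for each the 3 probe sets most like it, up to 3 listed genes per list called in GTL1ox against WT, measured relatives (IAA31), and DF1 and EXPA7 as checks. Genes of the lists were counted where the annotation pairs a probe set with that gene alone. LBD17, LBD18, HAT1 and all 22 listed auxin response factors, 6 receptors, 79 SAUR genes and 22 transport genes were matched to no such probe set through this annotation and were not analysed here.

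The 3 arrays of a genotype are biological replicates per the study's methods, and their number limits the precision. Same-number arrays deviated together, with each correlation above 0.1, in gtl1df1 against df1 only (0.101, 0.208 and 0.279). These correlations are weak, the design gives no pairing, and whether they mark one was not tested. The replicate block changed no call of the 6 genes in gtl1df1 against df1. The fit was tested on simulated data. Alternatives were quantile normalization, median centring, a filter on dim probe sets, trended robust moderation, a fit restricted to the pair of genotypes compared, the replicate block, a 2-fold threshold and leaving out single arrays. Setting values within 2-fold of the lowest equal was added after the data were seen. Figures were drawn with Python 3.11.15 and matplotlib 3.10.9.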

Additional observations from a re-analysis of the deposited data

How the results depend on the processing

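Of the 872 alternative values computed for the 66 changes of the 6 genes, 851 stayed on the same side of the threshold (29 of them uncalled with the other sign), 15 lost a call, 6 gained one and 0 turned a call round. Many of these changes compare dim values with each other and are near 0 under most settings, so the 851 says little about stability. The IAA30 calls against WT passed under 9 of 13 alternatives in DF1ox and 8 of 13 in df1. The calls of LBD16, HAT2 and IAA30 in GTL1ox against WT and against gtl1df1, and of LBD16 and HAT2 against DF1ox, passed under every alternative run. The calls of LBD29 and IAA29 rest on values within 2-fold of the lowest. With such values set equal, with a 2-fold threshold, or with only probe sets above the median level, the number of the 6 genes called was 3 in GTL1ox against WT, 2 against DF1ox and 3 against gtl1df1. In a fit restricted to the arrays being compared it was 0 in DF1ox against WT and 0 in df1 against WT, and the 2-fold threshold also left 0 in df1 against WT. With only probe sets above the median level it was 1 in gtl1 against WT. Leaving out each array in turn gave 0 to 2 genes in DF1ox against WT, 0 to 1 in df1 against WT, 0 to 1 in gtl1 against WT, 0 to 1 in gtl1df1 against WT and 0 to 1 for the interaction. The replicate block left the number of genes called at 5 in GTL1ox against WT, 4 against DF1ox, 5 against gtl1df1, 1 in DF1ox against WT and 1 in df1 against WT. By the design, same-number arrays of any pair of genotypes share only a number.

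Over all probe sets, a fit restricted to the arrays being compared called 2888 in GTL1ox against WT in place of 5574, 78 in DF1ox against WT in place of 1828, 125 in gtl1 against WT in place of 2678, 333 in df1 against WT in place of 3995, 990 in gtl1df1 against WT in place of 3342 and 358 in gtl1df1 against gtl1 in place of 1071. Such a fit has fewer arrays to estimate the spread. The 2-fold threshold left 2156 in GTL1ox against WT, 586 in DF1ox against WT, 1471 in GTL1ox against DF1ox, 2758 in GTL1ox against gtl1df1, 1537 in DF1ox against gtl1df1, 685 in gtl1 against WT, 1264 in df1 against WT, 984 in gtl1df1 against WT, 273 in gtl1df1 against gtl1, 1287 in gtl1df1 against df1 and 1810 for the interaction. With only probe sets above the median level, 1615 were called in gtl1df1 against gtl1, and the cause was not tested. Leaving out each array gave 2636 (without df1 replicate 2) to 4226 in df1 against WT and 573 (without gtl1 replicate 2) to 1048 in gtl1df1 against gtl1.

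Probe sets at the lowest value have no measured level, so a fall of LBD16, LBD29, IAA20 or IAA29 below WT could not be seen. All p-values rest on the spread within genotypes of 3 arrays each, pooled over the genotypes in the fit and moderated across probe sets. For LBD16, LBD29 and IAA29 most arrays in this spread lay near the lowest value, which narrows the SE and interval.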
